A study of Mus musculus with 15 samples.

Results

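NRF2, encoded by Nfe2l2, is the transcription factor that drives much of the response of a cell to oxidative and electrophilic stress. In unstressed cells it is captured by KEAP1 and destroyed by the proteasome. When KEAP1 is modified by electrophiles, or is sequestered by the autophagy receptor p62 (Sqstm1), NRF2 accumulates, pairs with a small MAF protein and binds antioxidant response elements in the promoters and enhancers of its targets. These targets import cystine (Slc7a11), make and recycle glutathione (Gclc, Gclm, Gsr), supply reducing power to thioredoxin and peroxiredoxins (Txnrd1, Srxn1), and detoxify quinones (Nqo1) and haem (Hmox1). Fibroblasts kept in air at atmospheric oxygen are known to meet an oxidative load.

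These 10 genes were followed across whole transcriptome RNA-seq of 15 samples of female C57BL/6 mouse embryonic fibroblasts. Primary wild-type cells (primary WT, 3 embryos, used before passage 5) were set beside culture-adapted WT lines that emerged from the same 3 primary populations on repeated passage. Primary CIZ1 null cells (homozygous for a gene trap in Ciz1, which encodes a protein located at the inactive X chromosome) and their culture-adapted derivatives came from another 3 embryos. Among the null embryos, E13.17, had in addition a GFP-CIZ1 transgene that responds to doxycycline. A further 3 primary CIZ1 null samples had this transgene too, 1 of them left untreated (S13) and 2 given doxycycline at 5 to 10 µg/ml (S14 and S15). The primary E13.17 population and S13 form the 2 untreated samples of the induction comparison. A culture-adapted line is 1 population per embryo, and no doxycycline-treated sample without a transgene was analysed here, so doxycycline and GFP-CIZ1 cannot be told apart.

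Members were the transcription units in the deposited table that carry 1 of the 10 symbols. This gave 18 of 65522 units: 10 on the annotated strand of each gene, and 8 on the opposite strand at the same coordinates. Sqstm1 and Slc7a11 had only the annotated-strand unit. Values are FPKM, fragments per kilobase of transcript normalised to library size, a level per length. The library kit was not stated to mark strand, and for 6 of the 8 pairs the opposite-strand unit followed its partner, with Pearson's r from 0.831 (Gclc) to 0.989 (Hmox1) across the 15 samples on a log2 scale, so a pair shares reads or a source and is not independent evidence. The opposite-strand unit was at a median of 60.5% of the annotated one for Srxn1 and 50.6% for Txnrd1, but 8.73% for Hmox1 and 10.3% for Gclm, so that levels set between genes rest on reads that may be divided unevenly. The exceptions in correlation were Gsr (r = 0.648) and Gclm (r = 0.123). Results below refer to the annotated-strand unit unless the opposite strand is named.

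Ciz1 matched its labels. It lay between 18.7 and 25.0 FPKM in the 6 WT samples and between 0.0546 and 0.724 FPKM in the 7 null samples without induction, and reached 296 and 191 FPKM in the doxycycline samples S14 and S15. Relative depth, from the FPKM that a single fragment is worth, ran from 0.482 (S13, the shallowest) to 1.63 times that of the primary WT sample E14.4. The summed level of 9 fibroblast markers was 8157 to 8849 FPKM in primary WT and 8597 to 8779 FPKM in primary CIZ1 null cells, but 2695 to 4788 FPKM in adapted WT and 2341 to 4579 FPKM in adapted null lines. Epithelial, endothelial, neural and liver marker lists never summed to more than 6.92 FPKM in any sample. The highest sums of the skeletal muscle, cartilage, macrophage and blood, and fat lists were 11.5, 18.4, 35.8 and 57.2 FPKM. In bulk samples, fewer cells of a kind and less RNA per cell cannot be told apart.

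Sequence around 2 of the genes shows what NRF2 is known to read. The core of the antioxidant response element, written as TGACNNNGC and searched on both strands, was found in 4 of 9 RefSeq promoter windows (250 bases before to 50 bases after a start, GRCm38.p6) that were matched to 7 of the 10 genes. The same letters occur in 12.4% of all 32851 windows of this length, and a match is a description, not a bound site. The windows of Nfe2l2 itself and of Gclm are printed 5′ to 3′ on the strand of the gene, with the match in capitals, because both are upstream of the unit that was measured. The Nfe2l2 match starts 240 bases before the start and lies in chr2:75704883-75704913 on the minus strand of the chromosome. The Gclm match is the reverse complement, starts 134 bases before the start and lies in chr3:122245411-122245443 on the plus strand.
Nfe2l2: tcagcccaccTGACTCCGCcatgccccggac
Gclm: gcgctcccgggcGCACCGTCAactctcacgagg
Srxn1 and Txnrd1 each had a match in 1 window, and the windows of Nqo1, Slc7a11 and Sqstm1 held none. Hmox1, Gclc and Gsr had no window.

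All 10 genes were detected in every sample, at levels that spanned more than 2 orders of magnitude. In primary WT cells the mean level was 214.5 FPKM for Sqstm1, 129.2 FPKM for Txnrd1 and 126.4 FPKM for Hmox1. The middle of the order was held by Gclm (54.3 FPKM), Srxn1 (39.6 FPKM), Nfe2l2 (30.9 FPKM), Gsr (21.2 FPKM) and Nqo1 (20.5 FPKM). Gclc followed at 11.2 FPKM and Slc7a11 was last at 1.09 FPKM. Among neighbours in this order, Txnrd1 and Hmox1, Gclm and Srxn1, Srxn1 and Nfe2l2, Gsr and Nqo1, and Nqo1 and Gclc overlapped between embryos. The transcript of the transcription factor itself varied little over the primary cells, with a ratio of highest to lowest sample of 1.18 in primary WT and 1.11 in primary null cells, below the median unit (1.35 and 1.42). Nqo1 and Srxn1 varied most in primary WT cells, with ratios of 2.31 and 2.38.

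**Figure D1:**
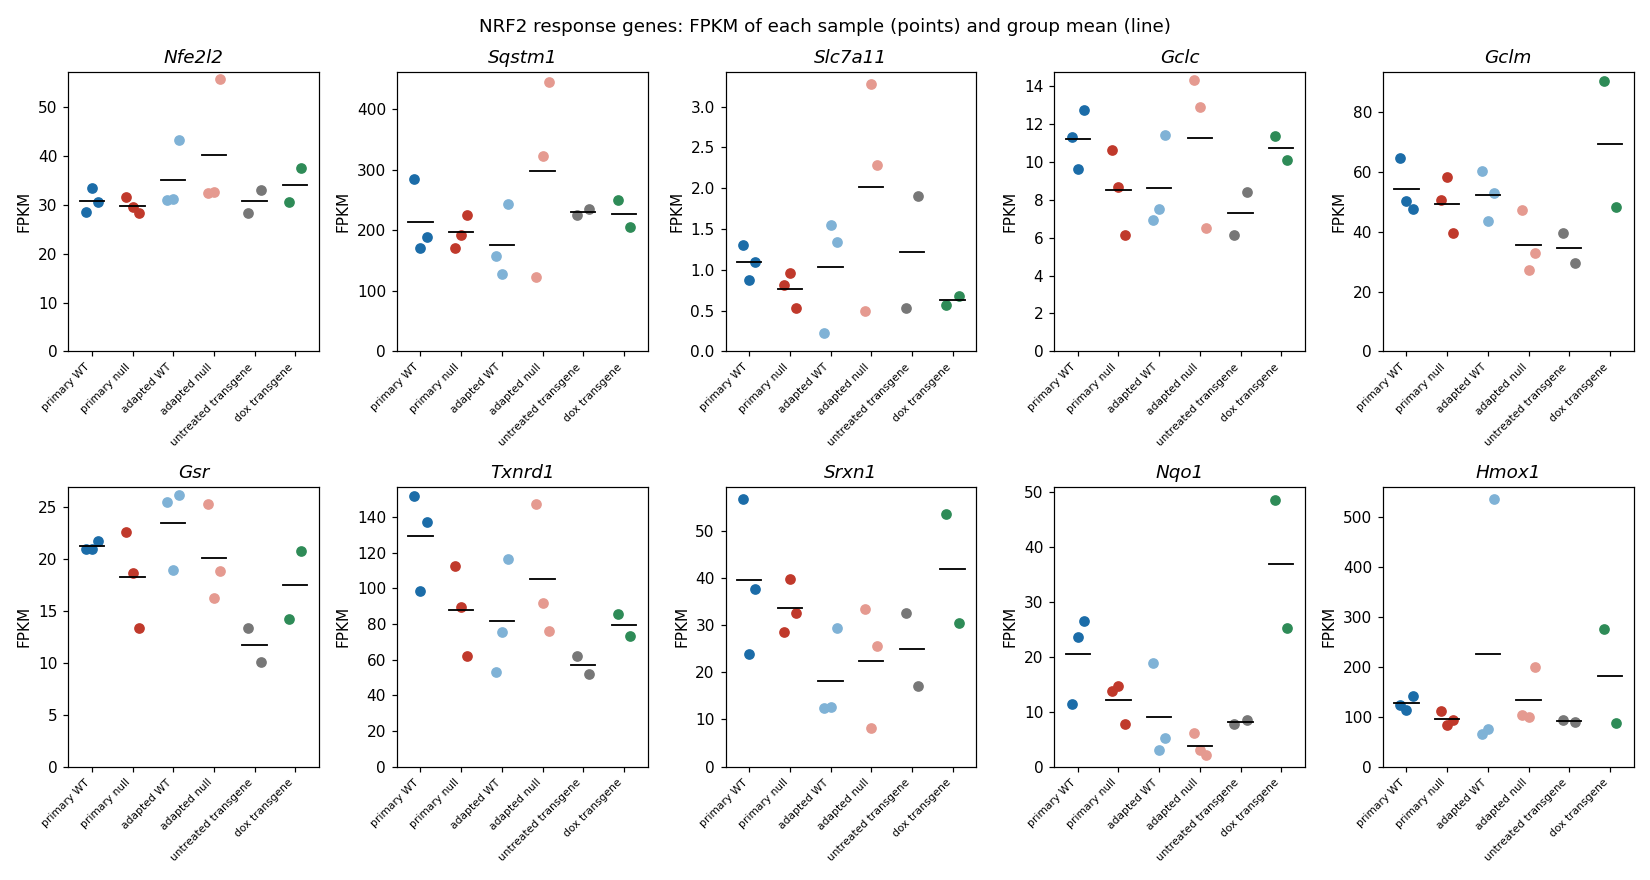
FPKM (linear axis from 0) of the annotated-strand unit of each gene, with a point per sample and a line at the group mean; the primary null sample E13.17 is drawn in both the primary null and the untreated transgene group. Nqo1 lies between 2.19 and 6.03 FPKM in the 3 adapted null lines and at 48.6 and 25.3 FPKM in the doxycycline samples, and Hmox1 at 537 FPKM in a single adapted WT line.

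Adaptation of WT cells to culture was accompanied by lower levels of several NRF2 targets, but none of the 10 annotated-strand units passed the test. Levels of 7 genes were lower and 3 higher, with a median log2 change of -0.20 against -0.05 over all 19919 units tested. Of all units tested, 9.55% passed at an adjusted p under 0.05 (limma with Benjamini-Hochberg adjustment). The values of primary and adapted cells overlapped for all 10 genes, whereas they did not overlap for 38.7% of all units. Markers of other cells also moved with adaptation. The macrophage and blood list summed to 22.6 to 31.3 FPKM in primary and 2.97 to 4.94 FPKM in adapted WT cells, and the globin Hbb-bs (log2 change -2.87, limma adjusted p = 0.00434) and the muscle gene Des (log2 change -2.75, limma adjusted p = 0.0122) fell. Their part in the result was not tested.

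Nqo1, the quinone reductase most often used as a readout of NRF2 activity, had the largest difference. It went from 11.4 FPKM in primary to 5.11 FPKM in adapted cells of embryo E14.4, from 23.5 to 18.8 FPKM in E13.1 and from 26.5 to 2.93 FPKM in E13.8. Every embryo had less in its adapted line, but adapted E13.1 remained within the primary range. The log2 change was -1.38 (SE 0.628, n = 3 and 3, limma adjusted p = 0.193). With each sample left out in turn it lay between -2.05 and -0.89. The lowest value came without adapted E13.1, the line within the primary range (limma adjusted p = 0.0425). That fit drops the line nearest to the primary cells, so it is no support for a fall. The opposite-strand unit of Nqo1 was slightly higher in adapted than in primary E13.1 (2.485 against 2.299 FPKM) and lower in the other WT pairs.

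Srxn1, the sulfiredoxin that reactivates overoxidised peroxiredoxins, went from 56.9 FPKM in primary to 29.4 FPKM in adapted cells of E14.4, from 23.9 to 12.5 FPKM in E13.1 and from 37.8 to 12.7 FPKM in E13.8. All 3 embryos had less after adaptation, but adapted E14.4 was above primary E13.1. The log2 change was -1.11 (SE 0.431, limma adjusted p = 0.142). It lay between -1.49 and -0.81 with each sample left out in turn. The lowest value came without adapted E14.4, the highest adapted line (limma adjusted p = 0.0485). As that fit drops the line nearest to the primary cells, it is no support for a fall. Txnrd1, the cytosolic thioredoxin reductase, went from 152 to 117 FPKM in E14.4, from 98.4 to 52.8 FPKM in E13.1 and from 137 to 75.7 FPKM in E13.8. It too was lower in 3 of 3 pairs, at a log2 change of -0.70 (SE 0.322, limma adjusted p = 0.195).

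Hmox1, the inducible haem oxygenase, behaved differently between lines. Its level in primary WT cells was narrow, 123 FPKM in E14.4, 114 FPKM in E13.1 and 142 FPKM in E13.8. Adapted E13.1 and E13.8 were lower, at 66.2 and 75.3 FPKM, and adapted E14.4 was far higher, at 537 FPKM. The ratio of highest to lowest adapted WT line was 8.11, beside a median of 1.82 over all units in that group. Of those units 17.1% had a ratio over 4, and Slc7a11, at a low level, and Nqo1 had ratios of 6.95 and 6.42. The fitted log2 change of Hmox1, 0.14 (SE 0.773, limma adjusted p = 0.917), therefore describes none of the 3 lines, and it was -0.82 without adapted E14.4. Beside this, the summed level of the macrophage markers (without the globin Hbb-bs) was 2.84 FPKM in adapted E14.4 and 1.79 and 2.53 FPKM in the other adapted WT lines. The fat marker Fabp4 was 42.5 FPKM in adapted E14.4 against 8.47 and 5.71 FPKM, Dcn was 905 FPKM against 0.984 and 46.5 FPKM, and Col1a1 was 139 FPKM against 1034 and 1231 FPKM. The part of these differences in the Hmox1 value was not tested. In the same line Nfe2l2 (43.4 FPKM), Sqstm1 (244 FPKM), Gclc (11.4 FPKM), Gsr (26.1 FPKM), Srxn1 and Txnrd1 were also the highest of the 3 adapted WT lines. Nqo1 (5.11 FPKM against 18.8 FPKM in E13.1), Gclm (53.0 against 60.3 FPKM in E13.1) and Slc7a11 (1.34 against 1.55 FPKM in E13.8) were not. Primary E14.4 was already the highest primary WT sample for Sqstm1, Srxn1 and Txnrd1.

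The remaining genes showed smaller changes. Nfe2l2 was 30.9 ± 2.52 FPKM (SD, n = 3) in primary and 35.2 ± 7.1 FPKM (SD, n = 3) in adapted WT cells. Sqstm1 had 214.5 ± 61.0 and 176.4 ± 60.1 FPKM, and was lower in 3 of 3 pairs (log2 changes of -0.11, -0.56 and -0.22). The cystine transporter subunit Slc7a11 had 1.09 ± 0.21 and 1.04 ± 0.713 FPKM. Gclc, the catalytic subunit of glutamate-cysteine ligase, had 11.2 ± 1.56 and 8.62 ± 2.47 FPKM, and its modifier subunit Gclm 54.3 ± 9.14 and 52.3 ± 8.32 FPKM. Glutathione reductase, Gsr, had 21.2 ± 0.468 and 23.5 ± 3.97 FPKM. None of these differences passed, with fitted log2 changes between -0.37 and 0.17.

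The only unit of the 18 that passed in WT adaptation was the opposite-strand unit of Gclm. It went from 3.85 to 8.41 FPKM in E14.4, from 4.14 to 8.08 FPKM in E13.1 and from 4.80 to 7.43 FPKM in E13.8. It rose in all 3 embryos without overlap (log2 change 0.77, SE 0.163, limma adjusted p = 0.0383), while the annotated-strand Gclm unit did not follow it. With the embryo as a block the limma adjusted p was 0.0925, so the call was lost, and it was lost too when any sample but adapted E14.4 was left out (limma adjusted p from 0.0567 to 0.148). The locus of this pair is recorded as chr3:122245518-122530191, a span that reaches well past Gclm, and the annotated-strand unit also carries the symbol Gm6061, so reads of neighbouring transcripts cannot be told apart from those of Gclm.

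**Figure D2:**
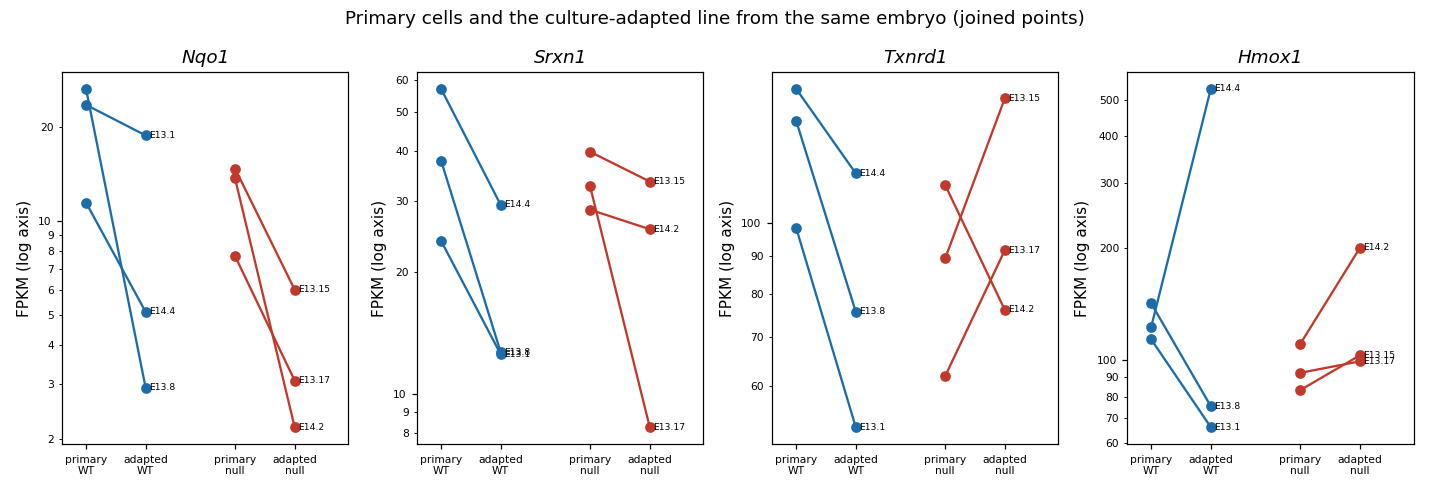
FPKM on a log axis of Nqo1, Srxn1, Txnrd1 and Hmox1, with lines that join each primary population to the adapted line from the same embryo (WT blue, CIZ1 null red). The annotated-strand units are drawn. Nqo1 and Srxn1 are lower in all 6 adapted lines, and Txnrd1 is lower in 3 of 3 WT pairs and higher in 2 of 3 null pairs. Hmox1 reaches 537 FPKM in adapted WT E14.4. Opposite-strand units, not drawn, are higher in adapted null E13.15 and E14.2 for Srxn1 and in adapted WT E13.1 for Nqo1.

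In CIZ1 null cells none of the 17 units tested passed in the comparison of primary with adapted cells, where 4.86% of all 20044 units tested passed (limma). For the annotated strand, 7 genes were higher and 3 lower after adaptation, at a median log2 change of 0.29 beside -0.04 over all units. Values of the groups did not overlap for 2 of the 10 genes, Nfe2l2 and Nqo1, and for the opposite-strand unit of Gclm. That is 3 of the 17 units tested, against 37.1% of all units. The macrophage and blood list summed to 24.1 to 35.8 FPKM in primary and 5.69 to 8.51 FPKM in adapted null cells, where Hbb-bs (log2 change -2.22, limma adjusted p = 0.0263) and Des (log2 change -2.84, limma adjusted p = 0.013) fell too. Their part in the result was not tested.

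Nqo1 was again lower. It went from 13.7 FPKM in primary to 2.19 FPKM in adapted cells of null embryo E14.2, from 14.7 to 6.03 FPKM in E13.15 and from 7.72 to 3.09 FPKM in E13.17. Every adapted line was below every primary population (log2 change -1.49, SE 0.369, limma adjusted p = 0.0657). With each sample left out in turn the log2 change lay between -1.81 and -1.24. The lowest value came without adapted null E13.15, the highest adapted line (limma adjusted p = 0.0257). This fit too leaves out the line nearest to the primary cells, so it is no support for a fall. Srxn1 was lower in 3 of 3 null pairs, from 28.6 to 25.6 FPKM in E14.2, from 39.8 to 33.6 FPKM in E13.15 and from 32.6 to 8.28 FPKM in E13.17, but adapted E13.15 lay inside the primary range (log2 change -0.75, SE 0.489, limma adjusted p = 0.347). Its opposite-strand unit went up in E13.15 (15.96 to 23.3 FPKM) and E14.2 (14.63 to 17.55 FPKM) and down in E13.17 (15.33 to 5.847 FPKM). The direction in E13.15 and E14.2 thus depends on the unit.

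Nfe2l2 and Sqstm1, which act upstream, and Slc7a11 did not pass. Nfe2l2 went from 31.6 to 55.9 FPKM in E14.2, from 29.5 to 32.5 FPKM in E13.15 and from 28.4 to 32.6 FPKM in E13.17, a difference without overlap that was widest in E14.2 (log2 change 0.38, SE 0.251, limma adjusted p = 0.355). Sqstm1 went from 171 to 446 FPKM in E14.2 and from 226 to 323 FPKM in E13.17, but from 193 to 123 FPKM in E13.15 (log2 change 0.42, SE 0.468, limma adjusted p = 0.579, and between 0.03 and 0.96 with a sample left out). Slc7a11 was likewise higher in adapted E14.2 (0.807 to 2.28 FPKM) and E13.17 (0.529 to 3.27 FPKM) and lower in adapted E13.15 (0.954 to 0.498 FPKM). The log2 change of Slc7a11 lay between 0.34 and 1.09 with a sample left out. Both genes passed without adapted null E13.15, Sqstm1 at 0.96 (limma adjusted p = 0.0464) and Slc7a11 at 1.09 (limma adjusted p = 0.0465). That fit drops the line in which both were lower, so it is no support for a rise. Across all 15 samples, log2 levels of Sqstm1 and Slc7a11 had a Pearson's r of 0.601 and a Spearman's rho of 0.546, a description over samples that include pairs from the same embryo.

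Txnrd1 and Gclc were higher on average in adapted than in primary null cells, with log2 changes of 0.24 and 0.33. Txnrd1 went from 112 to 76.2 FPKM in E14.2, from 89.4 to 147 FPKM in E13.15 and from 61.9 to 91.7 FPKM in E13.17, higher in 2 of 3 embryos. Gclc went from 10.6 to 6.53 FPKM in E14.2, from 8.68 to 14.3 FPKM in E13.15 and from 6.16 to 12.9 FPKM in E13.17, and Txnrd1 and Gclc were the most similar pair of members over the 15 samples (Pearson's r 0.776, Spearman's rho 0.754). Gclm was lower in 3 of 3 null embryos, from 50.7 to 32.9 FPKM in E14.2, from 58.2 to 47.2 FPKM in E13.15 and from 39.5 to 27.2 FPKM in E13.17 (log2 change -0.48, SE 0.264, limma adjusted p = 0.276). Its opposite-strand unit was instead higher in 3 of 3 null embryos, as in WT adaptation. The mean of that unit was 3.26 FPKM in primary and 6.32 FPKM in adapted null cells (log2 change 0.78, limma adjusted p = 0.0751). Hmox1 was higher in 3 of 3 null embryos, from 111 to 201 FPKM in E14.2, from 83.2 to 103 FPKM in E13.15 and from 92.6 to 99.5 FPKM in E13.17 (log2 change 0.42, SE 0.309, limma adjusted p = 0.403). Whether adaptation differed between genotypes was tested by an interaction term. No member passed, nor did any of the 20046 units tested (0%). An unadjusted limma p under 0.05 was found for 928 units, fewer than that threshold would be expected to give without any difference. Interaction estimates were above 0, higher in null than in WT adaptation, for 8 of the 10 annotated-strand genes at a median of 0.32 beside 0.04 over all units. The share of all units above 0 is not given here, so this count is not a result about the members. The interaction estimate was 0.94 for Txnrd1 (SE 0.489, limma adjusted p = 0.996), -0.10 for Nqo1 (95% interval -1.85 to 1.64) and 0.28 for Hmox1 (95% interval -1.74 to 2.29).

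Loss of CIZ1 was compared within primary cells and within adapted cells. In primary cells no member passed, and 1 of 19566 units did (0.00511%, limma). The 9 annotated-strand genes tested were all lower in CIZ1 null cells, with a median log2 change of -0.24, where 50.0% of all units were lower and the median was 0.00. Slc7a11 was not tested because its mean was under 1 FPKM. The number of lower genes was between 7 and 9 when each sample was left out in turn. In the same comparison 8 of 9 fibroblast markers were higher in null cells, 5 of them without overlap (among them Dcn, Lum, Col3a1 and Pdgfra), although none passed (limma) and their sum was similar. The part of this difference in the result was not tested. Of the 9, only Hmox1 separated the groups, at 114 to 142 FPKM in WT and 83.2 to 111 FPKM in null cells (log2 change -0.40, SE 0.147, limma adjusted p = 0.776). Over the 17 units, 3 were lower without overlap, both Hmox1 units and the opposite-strand unit of Nqo1. Over all units 11.9% did not overlap and 5.72% were lower without overlap. Txnrd1 was 129.2 ± 27.6 FPKM in WT and 87.9 ± 25.3 FPKM in null cells (SD, n = 3 each, log2 change -0.57, SE 0.253, limma adjusted p = 0.807), and Nqo1 was 20.5 ± 7.96 and 12.03 ± 3.77 FPKM (log2 change -0.69, SE 0.354, limma adjusted p = 0.815). For Nqo1, Txnrd1, Gclc, Gclm, Gsr, Nfe2l2 and Slc7a11 the lowest of the primary null samples was E13.17, which carries the uninduced transgene.

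Among adapted lines no member passed either, and 1 of 19976 units did (0.00501%, limma). The annotated-strand genes were split 6 higher and 4 lower in null lines with a median log2 change of 0.18, beside 0.03 over all units. Only the opposite-strand unit of Gclm had values without overlap, 7.43 to 8.41 FPKM in WT and 5.18 to 7.002 FPKM in null lines, against 8.28% of all units. Gclm itself was 52.3 ± 8.32 FPKM in WT and 35.8 ± 10.3 FPKM in null lines (log2 change -0.56, 95% interval -1.23 to 0.10), and Nqo1 was 8.94 ± 8.59 and 3.77 ± 2.01 FPKM (log2 change -0.79, 95% interval -2.30 to 0.72).

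**Figure D3:**
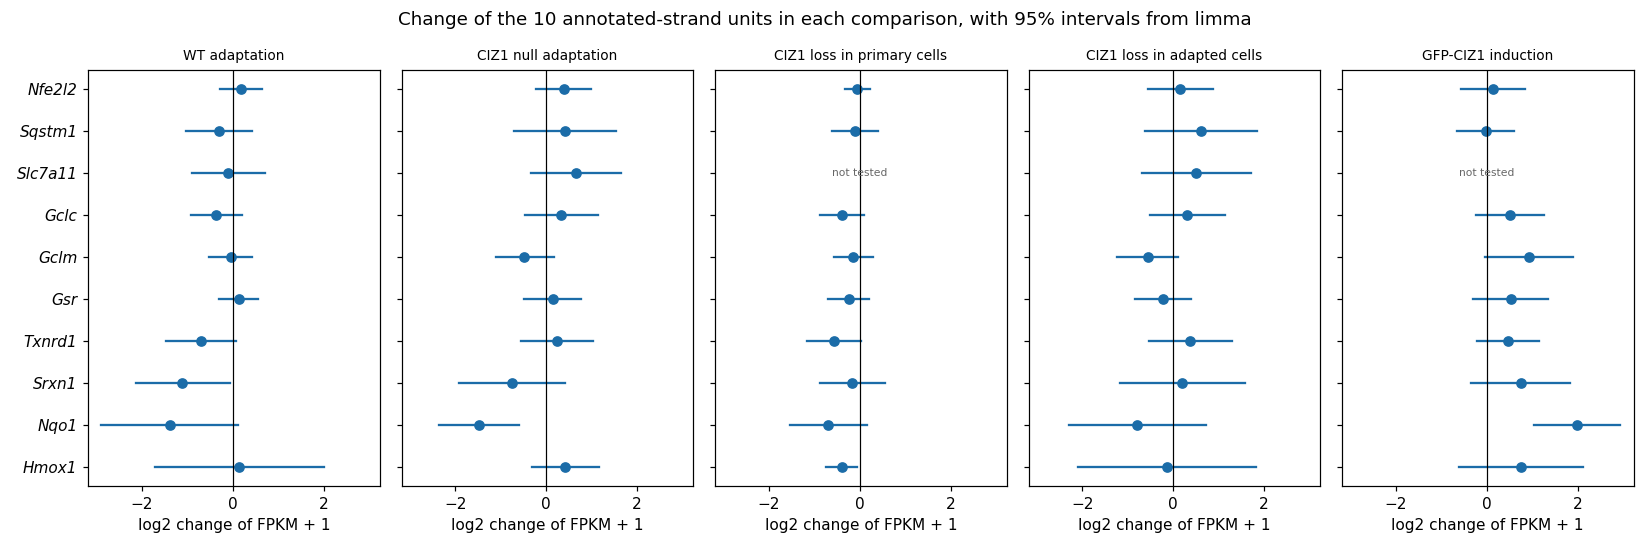
Log2 change of FPKM + 1 (x axis) with its 95% interval for each annotated-strand unit (rows) in 5 comparisons (panels), positive where the adapted, CIZ1 null or doxycycline-treated group is higher. The interval of Nqo1 lies below 0 in CIZ1 null adaptation (-2.37 to -0.60) and above 0 in induction (1.04 to 2.94), and no gene drawn passed after adjustment.

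Re-expression of CIZ1 was examined by induction of GFP-CIZ1 in primary null cells, with 2 samples per group. Ciz1 was at 296 and 191 FPKM in S14 and S15, far above the 18.7 to 25.0 FPKM of WT samples. The comparison is therefore not a return to the WT level of Ciz1. No member passed, and 2 of 19768 units did (0.0101%, limma). Of the 9 annotated-strand genes tested, 8 were higher with doxycycline, at a median log2 change of 0.53 beside -0.01 over all units, of which 48.9% were higher. Values of the groups did not overlap for 5 of the 9 genes (Nqo1, Gclm, Gclc, Gsr and Txnrd1), and over all 17 units tested for 9, all of them higher. Among all units, 19.7% did not overlap and 8.92% were higher without overlap. With each sample left out in turn, between 7 and 9 of the 9 genes were higher, 9 of them without the shallow untreated sample S13.

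Nqo1 had the largest response of the 10 genes. It was at 7.72 and 8.45 FPKM in the untreated samples E13.17 and S13, and at 48.6 and 25.3 FPKM in S14 and S15. Both treated samples were above both untreated ones, and S14 was above every other sample of the series. The log2 change was 1.99 (SE 0.386, limma adjusted p = 1), its rank by p was 27 among 19768 units, and it lay between 1.53 and 2.45 when each sample was left out in turn. Its opposite-strand unit was at 0.810 and 1.16 FPKM untreated and at 4.96 and 2.48 FPKM treated.

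The glutathione enzymes were higher by less. Gclm had 39.5 and 29.5 FPKM in E13.17 and S13 and 90.4 and 48.2 FPKM in S14 and S15 (log2 change 0.93, SE 0.392, limma adjusted p = 1). Gclc had 6.16 and 8.39 FPKM untreated and 11.4 and 10.1 FPKM treated, and Gsr 13.4 and 10.0 FPKM untreated and 14.2 and 20.7 FPKM treated. Txnrd1 had 61.9 and 51.9 FPKM untreated and 85.5 and 73.5 FPKM treated. For Gclc, Gsr and Txnrd1 the treated values stood above the untreated ones by less than for Nqo1, and both were inside the range of primary WT cells for Gclc but below it for Gsr and Txnrd1.

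Srxn1 and Hmox1 overlapped between the groups. Srxn1 was 32.6 and 17.1 FPKM in E13.17 and S13 and 53.7 and 30.4 FPKM in S14 and S15. Hmox1 was 92.6 and 89.8 FPKM untreated, but 276 FPKM in S14 and 86.4 FPKM in S15. Nfe2l2 itself (28.4 and 33.1 FPKM untreated, 30.6 and 37.6 FPKM treated) and Sqstm1 (226 and 235 FPKM untreated, 250 and 205 FPKM treated) overlapped between groups. Slc7a11, not tested for its low level, had 0.529 FPKM in E13.17 and 1.90 FPKM in S13 beside 0.570 and 0.683 FPKM in the treated samples. The study names 2 transgenic null populations for this experiment, E13.17 and E14.19, and the labels do not tie treated samples to them. Over units with a mean of at least 1 FPKM across all samples, S14 correlated best with E13.17 (Pearson's r 0.944) and S15 with S13 (0.953). Set beside the untreated sample it resembled most, each treated sample had more Srxn1 and more Nfe2l2. Hmox1, Sqstm1 and Slc7a11 were higher in S14 but not in S15. This matching was drawn from the same expression values and is not a known pairing. The summed fibroblast markers were 8779 and 7546 FPKM in E13.17 and S13 but 5453 to 6562 FPKM in the treated samples. The part of these differences in the result was not tested.

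The comparisons share samples. The primary null population E13.17 is the lowest primary null sample for 7 members. It stands in CIZ1 null adaptation, in CIZ1 loss in primary cells, in the interaction and in induction. The lower values on CIZ1 loss in primary cells, the higher values on adaptation of null cells and on induction, and the interaction estimates are therefore not independent of each other. For Nqo1, the levels were 11.4 to 26.5 FPKM in primary WT, 7.72 to 14.7 FPKM in primary null and 25.3 to 48.6 FPKM in induced null cells.

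Other genes of redox control, 80 in 7 lists, had 11 calls among 71 tested units in WT adaptation (15.5%, beside 9.55% over all units). Of the 11 regulators and partners of NRF2, including Keap1, Cul3, Bach1 and the small MAF genes, none passed in any of the 6 comparisons (limma), although Mafk, a partner of NRF2, was at 18.9 to 29.2 FPKM in primary and 9.03 to 14.8 FPKM in adapted WT cells (adjusted p = 0.0629). In WT adaptation 3 of the 18 tested units of glutathione enzymes and transport passed upwards and 3 downwards. Glrx, glutaredoxin, rose from between 7.06 and 12 FPKM in primary to between 51.4 and 56.6 FPKM in adapted WT cells (log2 change 2.44, limma adjusted p = 0.00651). The glutathione transferase Gstt1 rose by a log2 change of 3.68 (limma adjusted p = 0.0332) and the microsomal transferase Mgst2 by 2.45 (limma adjusted p = 0.045). Gpx3, the secreted glutathione peroxidase, fell by 2.65, Gpx7 fell by 1.05 and glutathione synthetase, Gss, fell by 0.94 on the log2 scale (limma adjusted p = 0.0165, 0.0395 and 0.03).

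The 5 lists other than the regulators and the glutathione genes held 42 tested units, of which 5 (11.9%) passed in WT adaptation, near the 9.55% over all units. Of 14 thioredoxin and peroxiredoxin genes only Sesn2, a sestrin, passed (log2 change -0.95, limma adjusted p = 0.0343), and of 6 genes of NADPH supply only Pgd, of the pentose phosphate pathway (log2 change -0.95, limma adjusted p = 0.0404). Of 8 haem and iron genes, Fth1, the ferritin heavy chain, rose from between 533 and 779 FPKM in primary to between 1395 and 2271 FPKM in adapted WT cells (log2 change 1.49, limma adjusted p = 0.0248). Among 10 tested genes of phase 1 and 2 detoxification, the unit that holds Ugt1a6a rose (log2 change 1.96, limma adjusted p = 0.0355), but it carries 9 symbols of the Ugt1a locus, whose members cannot be told apart. Of 4 superoxide and peroxide enzymes, mitochondrial Sod2 rose from between 11.7 and 13.1 FPKM to between 24.7 and 30.1 FPKM (log2 change 1.07, limma adjusted p = 0.0181).

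CIZ1 null adaptation had 2 calls among the 74 tested units of the 7 lists (2.70%, beside 4.86% over all units). Sod2 rose from between 11.7 and 12.1 FPKM in primary to between 32.5 and 58.96 FPKM in adapted null cells (log2 change 1.73, limma adjusted p = 0.0262), and Gpx7 fell by 1.19 (limma adjusted p = 0.0328). Glrx had 115 FPKM in adapted null E13.15, 17.02 FPKM in E13.17 and 89.5 FPKM in E14.2, and 11.7 to 12.4 FPKM in primary null cells (limma adjusted p = 0.104). In the loss comparisons, the interaction and induction, no unit of the 7 lists passed. In WT adaptation the fibroblast markers had no call and a median log2 change of -1.09, and in null adaptation 3 of 9 fell (Col1a1, Col1a2 and Vim). The part of this shift in the redox genes was not tested.

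The joint pattern of the 10 genes was described by the mean of their standardised log2 levels in each sample. It was highest in adapted WT E14.4 (0.73), primary WT E14.4 (0.53) and the treated sample S14 (0.53), and lowest in primary null E13.17 (-0.68), adapted WT E13.8 (-0.65) and S13 (-0.64). Of 3800 other units with a mean of at least 5 FPKM and an SD of at least 0.5 on the log2 scale, the 5 most like it over the 15 samples were Cobll1 (Pearson's r 0.776), the 2 strand units of Eaf1 (0.772 and 0.749), Soat1 (0.744) and Mmd (0.737). The members themselves did not form a single pattern. Nqo1 and Gclm had a Pearson's r of 0.697 and Srxn1 and Gclm of 0.636, but Slc7a11 ran against both Gclm (-0.679) and Nqo1 (-0.643). The points of these correlations share embryos and libraries.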

How the data were processed

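RNA was poly(A)-selected, and paired-end libraries (NEBNext Ultra) were sequenced by the authors. Per the labels, reads were trimmed with cutadapt 1.8.3, aligned to GRCm38 with HISAT2 2.0.5 and assembled and normalised with Cufflinks tools. The deposited values are FPKM per transcription unit, normalised between libraries by the authors with Cuffnorm. The deposited table of fold changes and p-values from the authors' Cuffdiff 2.2.1 comparisons was not used. Raw fragment totals are not given in the sources used here, so relative depth was taken from steps between low FPKM values.

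Values were set to log2(FPKM + 1), which understates changes of low genes, and units with a mean of at least 1 FPKM over the samples of a comparison were fitted with limma 3.58.1 (trend, R 4.3.3) on the groups compared only. Benjamini-Hochberg adjustment ran over all units, with a threshold of 0.05. The procedure was tested on simulated data. Replicates of the primary and adapted groups are separate embryos. For induction the labels do not give the embryos of S13, S14 and S15, so the samples were compared unpaired. Strand was inferred from the order of unit numbers, and 98.2% of 33118 single-unit symbols then lay on their annotated strand.

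Primary and adapted samples come from the same embryos by the study's methods, matched through identical values in its per-line tables. Correlations of paired deviations were 0.146 (E13.1), -0.00539 (E13.8) and 0.211 (E14.4) in WT cells, and 0.106 (E13.15), 0.0881 (E13.17) and -0.019 (E14.2) in null cells. Members and lists were chosen with earlier results of these data known. All 10 members are described, and other listed genes are named where they passed, or as examples chosen after their values were seen (among them Mafk, and Glrx in null cells). A planned limit of 4 names per list and comparison was not kept for the glutathione genes. Alternatives were another pseudocount (0.1), no filter, a filter at 5 FPKM, quantile normalisation, an embryo block, a joint fit, other sets of primary null samples and each sample left out. Figures were drawn with Matplotlib 3.10.9.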

Additional observations from a re-analysis of the deposited data

How the results depend on the processing

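The number of member units called in WT adaptation (1) was 0 without a filter and 0 with the embryo as a replicate block, and lay between 0 and 5 when each sample was left out in turn: 0 without any single primary WT sample or adapted E13.8, 2 without adapted E13.1 and 5 without adapted E14.4. In CIZ1 null adaptation (0) it was 1 when all 4 arms were fitted together, through the Gclm opposite-strand unit (limma adjusted p = 0.0187), and 0 to 3 with a sample left out, 3 without adapted null E13.15. The share of all units called in each of these refits is not given here, so the counts are not a result about the members. The block changed no other member call. The 4 other comparisons gave 0 calls under every alternative run. The counts of genes lower on CIZ1 loss in primary cells (9) and higher on induction (8) each lay between 7 and 9 with a sample left out, an alternative chosen after seeing the data.

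Under quantile normalisation the sign of the log2 change turned for Gclm (0.20), Slc7a11 (0.12) and Sqstm1 (0.04) in WT adaptation and for Sqstm1 in induction (0.00). With only the primary null samples that lack a transgene it turned for Gsr in null adaptation (-0.05) and Gclm in CIZ1 loss in primary cells (0.01). With a sample left out, log2 changes crossed 0 in WT adaptation for Hmox1 (-0.82 to 0.68), Gclm (-0.16 to 0.08) and Slc7a11 (-0.24 to 0.23), and in null adaptation for Txnrd1 (-0.03 to 0.44) and Gsr (-0.05 to 0.31). In CIZ1 loss in primary cells they did for Nfe2l2 (-0.10 to 0.01), Gclm (-0.26 to 0.01), Srxn1 (-0.46 to 0.14) and Sqstm1 (-0.25 to 0.12), and in adapted cells for Nfe2l2 (-0.09 to 0.32), Hmox1 (-0.66 to 0.84) and Srxn1 (-0.18 to 0.77). The interaction crossed 0 for Nqo1 (-0.60 to 0.57) and Hmox1 (-0.25 to 1.24), and induction for Nfe2l2 (-0.00 to 0.29), Hmox1 (-0.08 to 1.59) and Sqstm1 (-0.16 to 0.12). The cause was not tested. None of these values was called. With 2 or 3 samples per group and adapted libraries at a relative depth of 0.541 to 1.18, a missed threshold does not show that levels were alike.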
